A study of Mus musculus with 32 samples.

Results

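The 10 genes described here encode enzymes that make, salvage or divert nicotinamide adenine dinucleotide (NAD). They were chosen by name, as Nampt, Nmnat1, Nmnat2, Nmnat3, Naprt, Nmrk1, Nadk, Nadk2, Nnmt and Qprt, and all 10 were found by gene identifier among the 41388 genes counted in each of 32 RNA sequencing libraries of primary mouse sternal chondrocytes, the cells that build cartilage. The mice had a C57BL/6 background, and the cells were isolated from newborn pups and not passaged. Each of 16 conditions had 2 libraries. Wild-type (WT) chondrocytes received nothing, FX11 at 40 µM, IL-1β at 10 ng/mL, or both for 24 h, with no virus. FX11 inhibits lactate dehydrogenase A. Chondrocytes from 3 floxed lines (Nampt f/f, Ldha f/f and Nfkbiz f/f) were infected with adenovirus carrying eGFP (GFP virus) or Cre recombinase and eGFP (Cre virus) at a multiplicity of infection of 10 for 24 h, and IL-1β was then added to some of the cultures for another 24 h. The floxed genes encode nicotinamide phosphoribosyltransferase, lactate dehydrogenase A and IκB-ζ, an inducible regulator of NF-κB target genes. No WT library received a virus, so the virus and the floxed lines cannot be told apart from WT. Cre virus was given to floxed cells only, so within a line the deletion and the Cre virus itself cannot be told apart. Below, deletion of a gene stands for Cre virus in the cells floxed for it. By its title and design text, the series concerns the response to IL-1β, an inflammatory cytokine, in chondrocytes with these deletions or FX11.

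NAD carries electrons between metabolic reactions and is also consumed by sirtuins, poly(ADP-ribose) polymerases and NAD glycohydrolases, so cells rebuild it continuously. In the salvage route NAMPT turns nicotinamide into nicotinamide mononucleotide, and this step limits the rate in most mammalian cells. NMRK1 makes the same mononucleotide from nicotinamide riboside, NAPRT starts from nicotinic acid, and QPRT starts from quinolinic acid at the end of the kynurenine route. The routes meet at the NMNAT enzymes, which complete the dinucleotide in the nucleus (NMNAT1), the cytosol and Golgi (NMNAT2) or mitochondria (NMNAT3). NADK in the cytosol and NADK2 in mitochondria phosphorylate NAD to NADP, and NNMT methylates nicotinamide and so removes it from salvage.

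The libraries held between 15830658 and 39959888 counts. Sample titles numbered them in 2 styles, called library set 1 (12 libraries) and set 2 (20 libraries) here. For WT, Ldha f/f and Nampt f/f cells replicate 1 of a condition was in set 1 and replicate 2 in set 2, while both Nfkbiz f/f replicates were in set 2. The summed level of 8 chondrocyte markers lay between 12987 and 83725 CPM (counts scaled to library size) in all 32 libraries, and that of 6 fibroblast or perichondrium markers between 723 and 9634 CPM. Summed macrophage markers were 37.0 to 103 CPM in WT and 11.1 to 50.1 CPM in the floxed lines, and their part in the results was not tested. Each targeted gene was lower in the libraries of its line labelled with Cre virus. Ldha was at 918 and 869 CPM with GFP virus and at 118 and 111 CPM with Cre virus in Ldha f/f cells, and Nfkbiz was at 16.1 and 17.0 CPM against 9.65 and 8.28 CPM in Nfkbiz f/f cells. With IL-1β, Nfkbiz was at 235 and 229 CPM against 29.5 and 32.3 CPM in Nfkbiz f/f cells. Under IL-1β it was also lower with Cre virus in the lines where it was not targeted. There it was at 177 and 164 CPM against 69.7 and 66.9 CPM in Ldha f/f cells. In Nampt f/f cells it was at 202 and 204 CPM against 67.7 and 60.8 CPM. The values of 2 WT libraries of set 2 went against their labels. Mmp3 and Il6, genes that IL-1β induces, were at 0.784 and 0 CPM in the one labelled IL-1β, where its set 1 counterpart had 9125 and 58.0 CPM. Mmp3 was at 2016 CPM in the one labelled FX11, where its set 1 counterpart had 1.20 CPM. WT results are therefore given with and without these libraries, and the floxed lines carry the comparisons below.

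With GFP virus and no IL-1β (6 libraries, 2 of each line), Nadk had the highest level per kilobase of exon, with a lowest value of 28.0, a median of 29.1 and a highest value of 30.6 CPM per kilobase. Nampt came next at 12.0, 13.1 and 17.3 CPM per kilobase, below every Nadk value and above every value of the other members. Nadk2, Nmnat3, Nnmt, Nmnat1, Naprt and Nmrk1 followed with medians of 3.63, 3.35, 3.34, 2.08, 1.69 and 1.17 CPM per kilobase, and the range of each of these overlapped that of the next gene in the order. Nmnat2, the isoform best known from neurons, was far lower at a median of 0.166 CPM per kilobase, with a range that did not overlap that of Nmrk1. Qprt (ENSMUSG00000030674, chr7:127107114-127122226, minus strand) had between 0 and 14 counts in any of the 32 libraries and was too low to test.

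**Figure D1:**
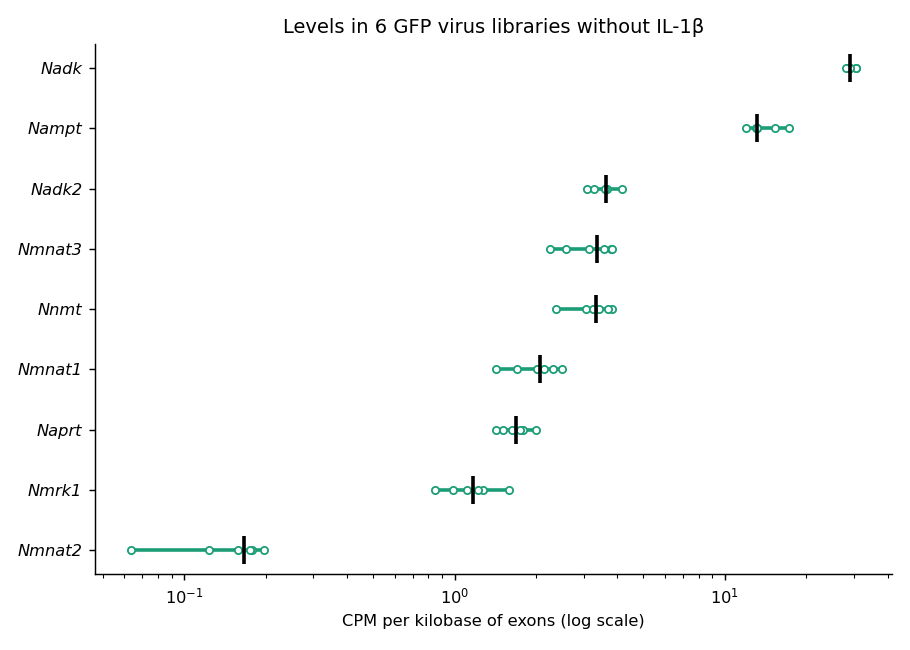
Level of each of 9 members in the 6 GFP virus libraries without IL-1β, in CPM per kilobase of exons on a log axis. Open circles are libraries, bars span lowest to highest and black ticks mark medians. Nadk and Nampt stand apart from the rest at medians of 29.1 and 13.1, and Nmnat2 is lowest at 0.166. Nmnat3 is lower without GFP virus, at a median of 0.940 in WT libraries.

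Nampt (ENSMUSG00000020572, chr12:32820335-32853369, plus strand, exons of 4547 bases) was the targeted member, and its reads fell sharply in Nampt f/f cells given Cre virus. Without IL-1β it had 59.5 and 54.6 CPM with GFP virus against 6.72 and 6.86 CPM with Cre virus. With IL-1β it had 67.4 and 68.4 CPM against 5.70 and 4.63 CPM. The 4 Cre virus libraries of this line lay far below the other 28 libraries of the series, which held between 46.4 and 114 CPM. The log2 fold change was -3.08 ± 0.10 (standard error, SE; adjusted p = 8.15e-08) without IL-1β, leaving 11.8% of the GFP virus level, and -3.68 ± 0.11 (adjusted p = 2.14e-09) with IL-1β, leaving 7.8%. In bulk samples such as these, fewer cells of a type and less RNA per cell cannot be told apart.

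Nampt starts at base 32820335 in the deposited coordinates and at 32819545 in the GENCODE M21 annotation. The 250 bases before the former start, which lie inside the gene by the latter, are shown here. The response of Nampt to IL-1β, with GFP and with Cre virus, is described below, and the part of these 250 bases in it was not tested. These bases lie at chr12:32820085-32820334 on the plus strand (GRCm38.p6, RefSeq promoter table, which had entries for 7 of the 10 members), and capitals mark GGGCGG or its complement CCGCCC, the GC box.
Nampt promoter: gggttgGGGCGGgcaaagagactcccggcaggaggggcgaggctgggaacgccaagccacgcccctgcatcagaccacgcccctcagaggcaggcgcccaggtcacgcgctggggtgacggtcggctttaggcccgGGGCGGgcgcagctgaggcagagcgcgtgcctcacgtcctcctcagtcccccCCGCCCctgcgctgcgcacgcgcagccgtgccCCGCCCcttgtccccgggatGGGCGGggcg
The window was 75.6% G or C, above 96.4% of the 32851 windows of the same length in the table. It held 5 GC boxes, and 32.7% of all windows held at least 1 on either strand. No match to the κB motif, present in 7.25% of windows, or to the AP-1 motif TGANTCA, present in 6.75%, was found in these letters in Nampt or in the windows of the other matched members.

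**Figure D2:**
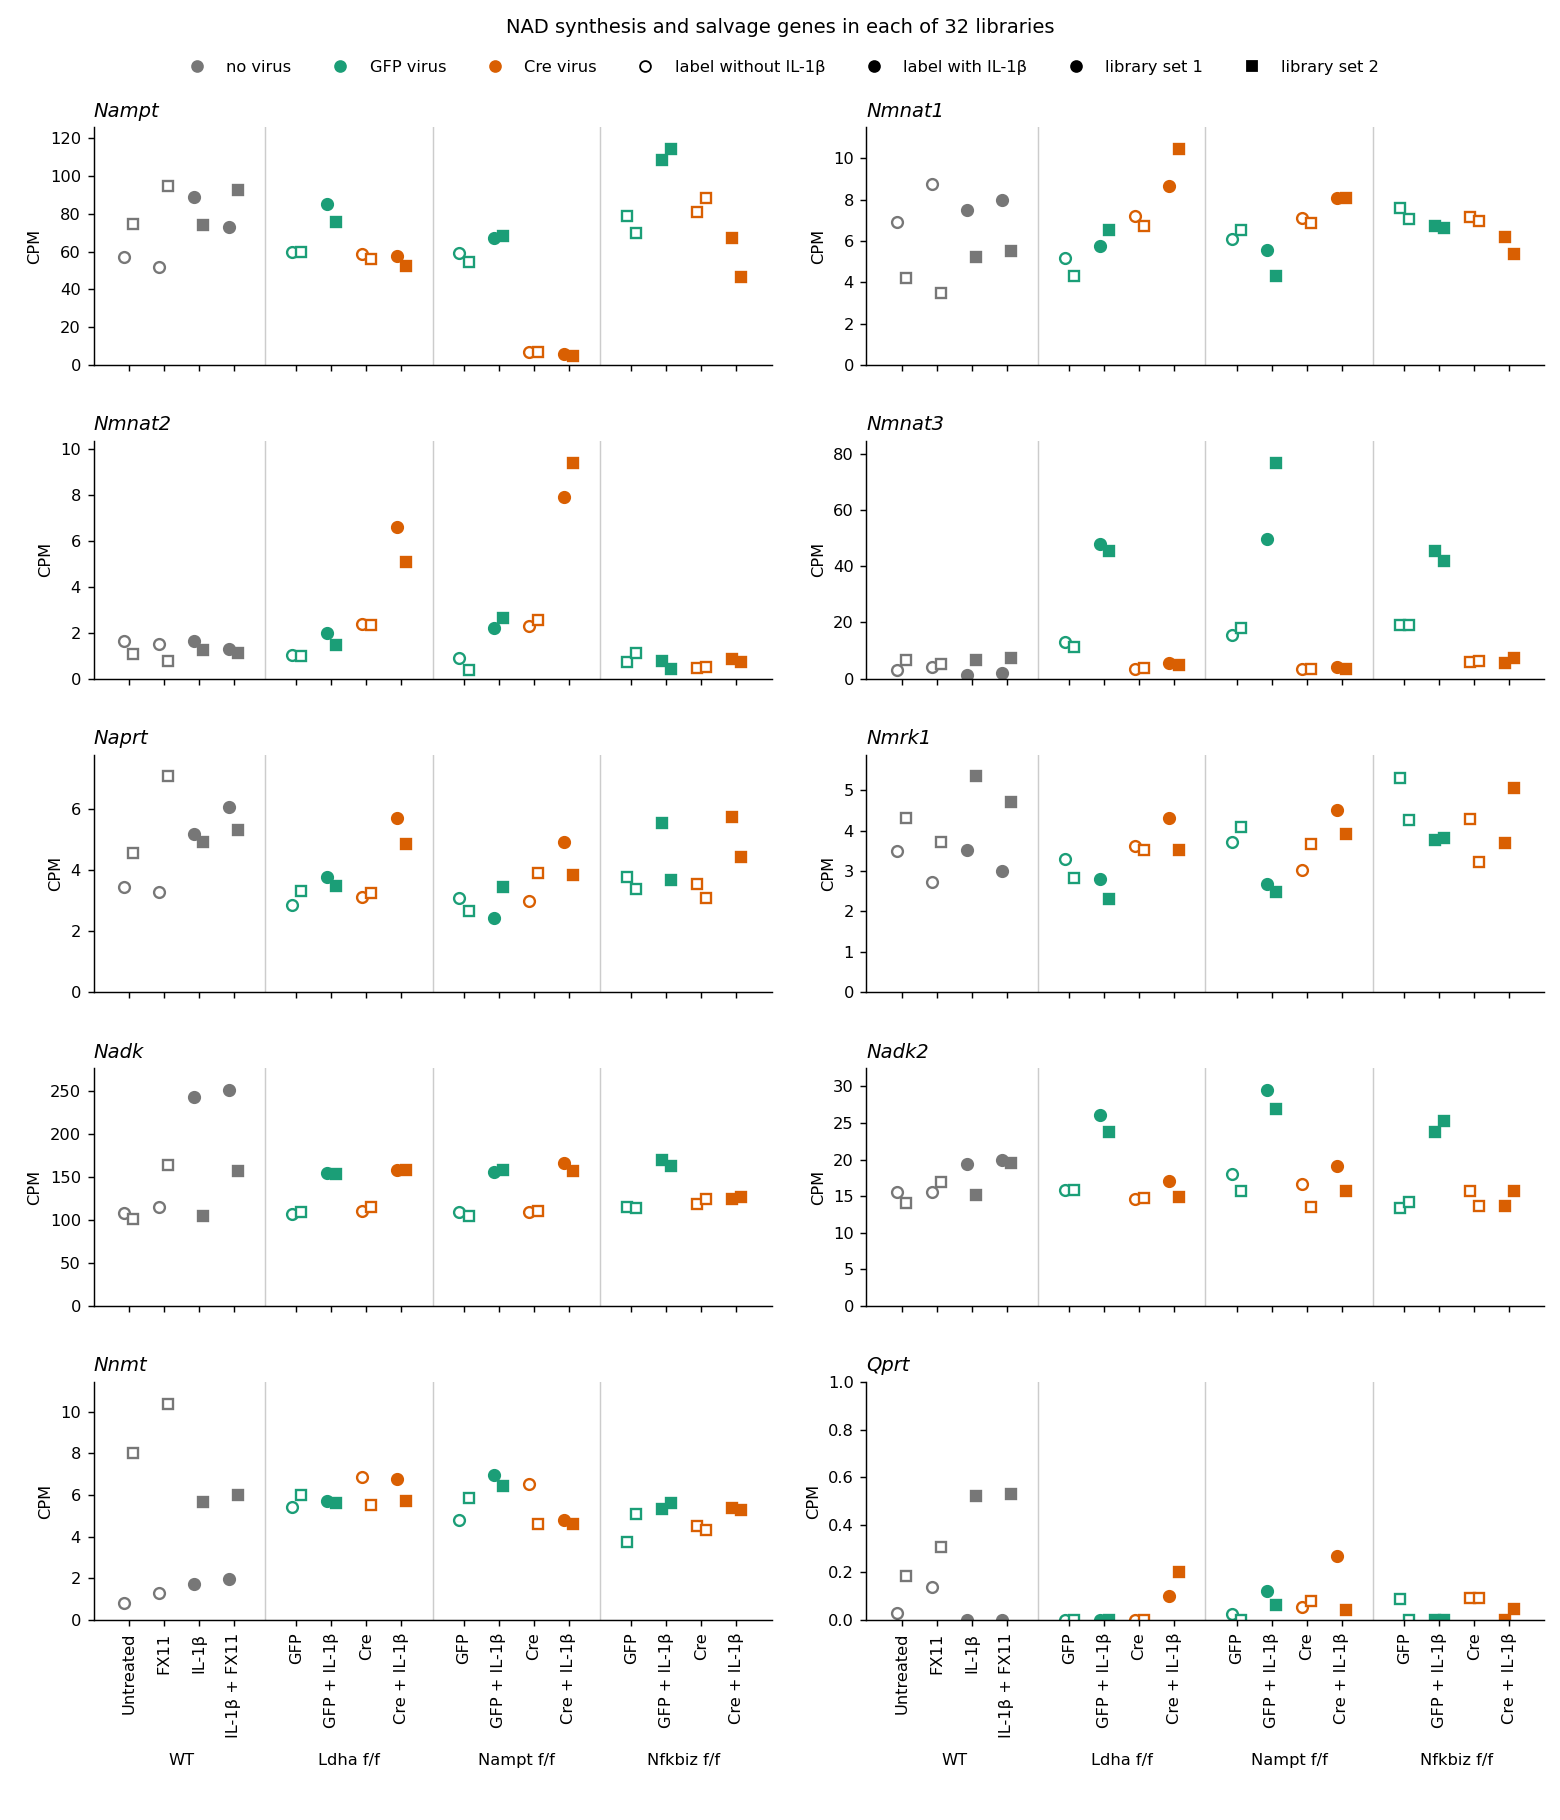
CPM of the 10 members in each of the 32 libraries, with conditions along the horizontal axis grouped by line. Colour gives the virus, filled symbols the libraries labelled with IL-1β, circles set 1 and squares set 2. Nampt drops in the 4 Nampt f/f Cre virus libraries, Nmnat3 is high in the 12 GFP virus libraries, and Nmnat2 is high after Cre virus in Ldha f/f and Nampt f/f cells.

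The first question was whether other members changed when Nampt was deleted. Without IL-1β, Nmnat2 rose and Nmnat3 reads fell along with Nampt, and no other member was called. That was 3 of 9 tested members, where 14.4% of all 16136 genes tested were called, and 1 of 7 once Nampt and Nmnat3 were set aside. With IL-1β, 6 of 9 members were called against a background of 48.4% of genes, or 4 of 7 without Nampt and Nmnat3. Nmnat1, Nmnat2 and Nmrk1 were higher and Nadk2 was lower. The median log2 fold change of the tested members was 0.03 without and 0.06 with IL-1β, beside medians of -0.02 and -0.03 over all genes.

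Nmnat2 (ENSMUSG00000042751, chr1:152954993-153119261, plus strand) showed the largest rise of any member after Nampt deletion. It had 0.913 and 0.368 CPM with GFP virus and 2.28 and 2.53 CPM with Cre virus, and with IL-1β it had 2.20 and 2.65 CPM with GFP virus and 7.90 and 9.39 CPM with Cre virus. The Cre and GFP virus libraries did not overlap in either pair. The log2 fold changes were 1.76 ± 0.34 (adjusted p = 0.00525) and 1.85 ± 0.29 (adjusted p = 0.000338). In Ldha f/f cells, where Nampt was intact, Nmnat2 went from 1.03 and 1.01 CPM to 2.39 and 2.35 CPM without IL-1β and from 2.01 and 1.46 CPM to 6.58 and 5.07 CPM with IL-1β. These changes were 1.19 ± 0.28 (adjusted p = 0.0377, where 5.52% of genes and 2 of 9 members were called) and 1.76 ± 0.26 (adjusted p = 0.000611). The former was not called when any 1 of its 4 libraries was left out (adjusted p from 0.118 to 0.16) or with limma (adjusted p = 0.113). In Nfkbiz f/f cells Nmnat2 had 0.712 and 1.14 CPM with GFP virus and 0.457 and 0.506 CPM with Cre virus, and with IL-1β 0.752 and 0.435 CPM against 0.859 and 0.739 CPM, and neither change passed the test.

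The Cre effect in Nampt f/f cells was then set against the Cre effect in lines with an intact Nampt gene. Averaged over both IL-1β states, the Cre effect on Nmnat2 was higher in Nampt f/f cells than in the other 2 lines by 1.19 ± 0.29 on the log2 scale (adjusted p = 0.00432), and 3 of 9 members differed, Nampt, Nmnat2 and Nmnat3, where 20.8% of genes did. Taken against each line alone, which was added after seeing the data, the difference for Nmnat2 was 2.05 ± 0.38 against Nfkbiz f/f (adjusted p = 0.000182) and 0.33 ± 0.31 against Ldha f/f (adjusted p = 0.698). Against Ldha f/f only Nampt itself differed among the 9 members, by -3.09 ± 0.12 (adjusted p = 4.98e-14), where 0.705% of genes, 118 of 16727, differed. Without Nampt f/f GFP + IL-1β replicate 1, Nmnat3 was called as well (-0.86, adjusted p = 0.00972). Against Nfkbiz f/f 5 of 9 members differed, where 31.3% of genes did. Nmnat2 was thus called after Cre virus in 2 lines, and a difference between those lines was not detectable with 2 libraries per condition, which does not show that they responded alike. Reads of 6 p53 target genes, which mark a DNA damage or stress response, are given beside these results. All 6 were called higher after Cre virus in Nampt f/f cells (median log2 fold change 0.41 without and 0.55 with IL-1β). There 14.4% and 48.4% of all genes were called. All 6 were also called higher in Ldha f/f cells (0.46 and 0.57), beside 5.52% and 34.0% of genes. In Nfkbiz f/f cells the median was 0.21 without IL-1β, with 0 of 6 called beside 0.26% of genes. With IL-1β it was 0.43, with 3 of 6 called beside 17.4% of genes, while Nmnat2 was not called there (0.42 ± 0.53, adjusted p = 0.639). Their part in the Nmnat2 result was not tested.

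**Figure D3:**
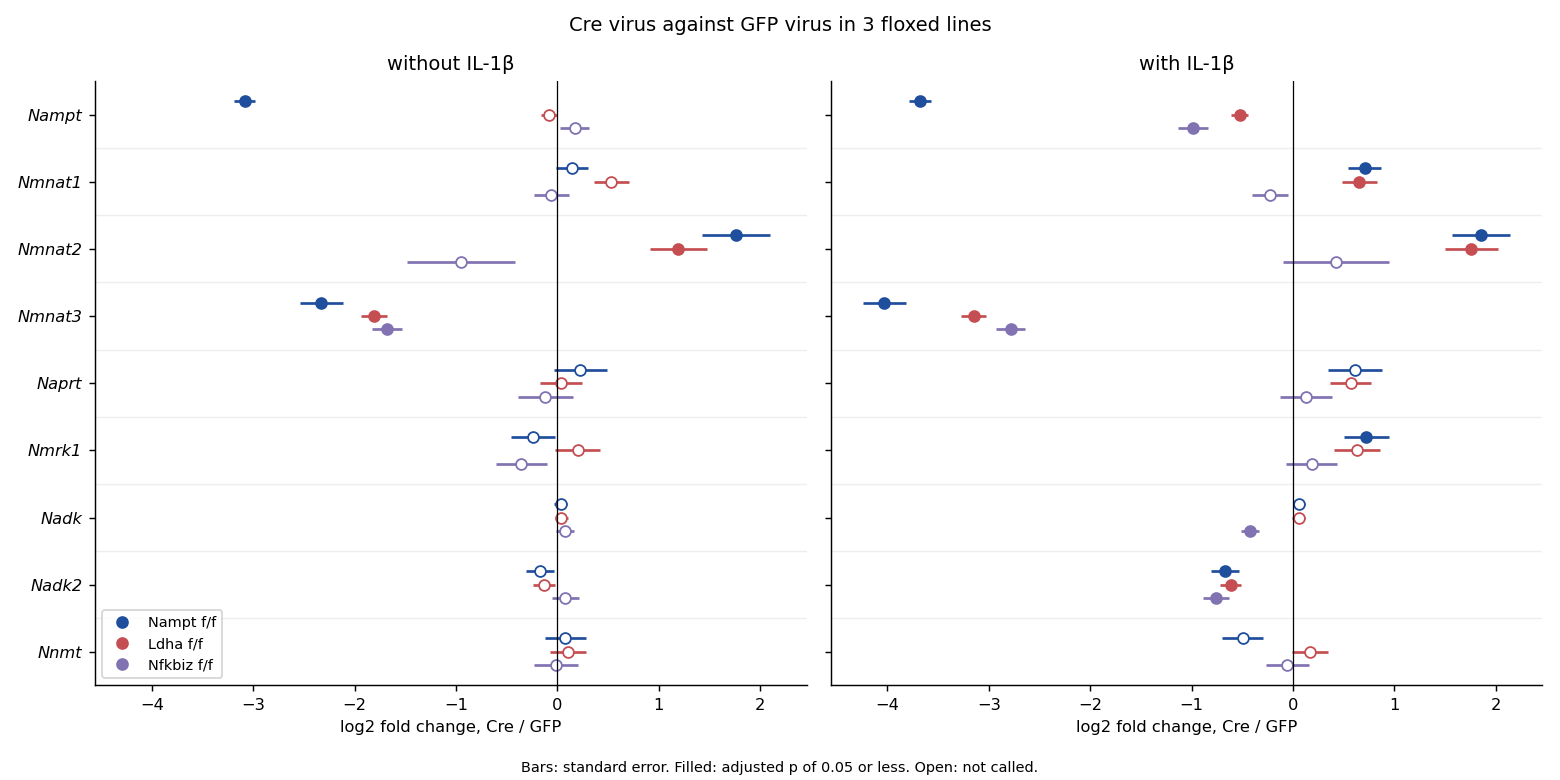
Log2 fold change of 9 members after Cre virus against GFP virus in the 3 floxed lines, without (left) and with (right) IL-1β. Points are estimates, bars standard errors, and filled points have an adjusted p of 0.05 or less. Nampt is at -3.08 and -3.68 in Nampt f/f cells, Nmnat2 is higher in Nampt f/f and Ldha f/f cells, and Nmnat3 is lower in each line.

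Of the enzymes of the other entry routes and of nicotinamide removal, Nmrk1 was called after Nampt deletion with IL-1β, while Naprt and Nnmt missed the threshold, which does not show that they did not differ. Nmrk1 (ENSMUSG00000037847, chr19:18631950-18652194, plus strand) had 3.73 and 4.10 CPM with GFP virus against 3.02 and 3.66 CPM with Cre virus, which was not called. With IL-1β it had 2.68 and 2.47 CPM against 4.50 and 3.92 CPM, a log2 fold change of 0.72 ± 0.23 (adjusted p = 0.0213), and the call was lost without either GFP + IL-1β library or Cre + IL-1β replicate 1 (adjusted p from 0.0782 to 0.137). Ldha f/f cells gave 2.81 and 2.30 CPM against 4.30 and 3.51 CPM under IL-1β (0.63 ± 0.23, adjusted p = 0.0589). Naprt (ENSMUSG00000022574, chr15:75890964-75894481, minus strand), the entry of the nicotinic acid route, had 3.09 and 2.68 CPM against 2.99 and 3.90 CPM without IL-1β and 2.44 and 3.46 CPM against 4.93 and 3.84 CPM with it, and the latter difference of 0.61 ± 0.27 did not pass (adjusted p = 0.0806), though it did with limma (adjusted p = 0.0457). Naprt shares 277 exon bases with Eef1d on the same strand, so its counts exclude reads that fall on both genes. Nnmt (ENSMUSG00000032271, chr9:48591877-48605153, minus strand) had 4.82 and 5.83 CPM against 6.54 and 4.60 CPM without IL-1β, and 6.97 and 6.42 CPM against 4.79 and 4.59 CPM with IL-1β (-0.50 ± 0.21, adjusted p = 0.0672).

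Nmnat1 (ENSMUSG00000028992, chr4:149467572-149485202, minus strand), the nuclear isoform, was called after Nampt deletion only under IL-1β. It had 5.57 and 4.32 CPM with GFP virus and 8.06 and 8.05 CPM with Cre virus, a log2 fold change of 0.71 ± 0.16 (adjusted p = 0.00457, and 0.105 with all 32 libraries in one model). Without IL-1β it had 6.11 and 6.52 CPM against 7.11 and 6.86 CPM, a change of 0.14 ± 0.16. In Ldha f/f cells under IL-1β it went from 5.78 and 6.54 CPM to 8.67 and 10.4 CPM (0.66 ± 0.17, adjusted p = 0.0152), and this call was lost without GFP + IL-1β replicate 1 or Cre + IL-1β replicate 2 (adjusted p of 0.117 and 0.11). In Nfkbiz f/f cells its values under IL-1β were 6.71 and 6.61 CPM against 6.19 and 5.35 CPM, not called. Nmnat1 was thus called with IL-1β in the same 2 lines as Nmnat2. In Nampt f/f cells the IL-1β dependence of this difference did not pass the test (interaction 0.57 ± 0.23, adjusted p = 0.108).

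Nmnat3 (ENSMUSG00000032456, chr9:98287435-98420438, plus strand), the mitochondrial isoform, had reads that followed the virus in each line. The 6 GFP virus libraries without IL-1β had 11.3 at the lowest, 16.8 at the median and 19.2 CPM at the highest, and the 6 with IL-1β had 41.9, 46.6 and 76.8 CPM. The 12 Cre virus libraries had between 3.31 and 7.26 CPM and the 8 virus-free WT libraries between 1.49 and 7.25 CPM. No Cre virus or WT library reached the lowest GFP virus library. The log2 fold change with Cre virus was -2.33 ± 0.21 in Nampt f/f cells (adjusted p = 4.69e-05), -1.81 ± 0.13 in Ldha f/f cells (adjusted p = 5.03e-05) and -1.68 ± 0.15 in Nfkbiz f/f cells (adjusted p = 8.98e-05). In the last of these Nmnat3 was 1 of 9 members called, where 0.26% of genes, 40 of 15356, were. Under IL-1β the changes were -4.03 ± 0.21, -3.15 ± 0.12 and -2.78 ± 0.15.

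**Figure D4:**
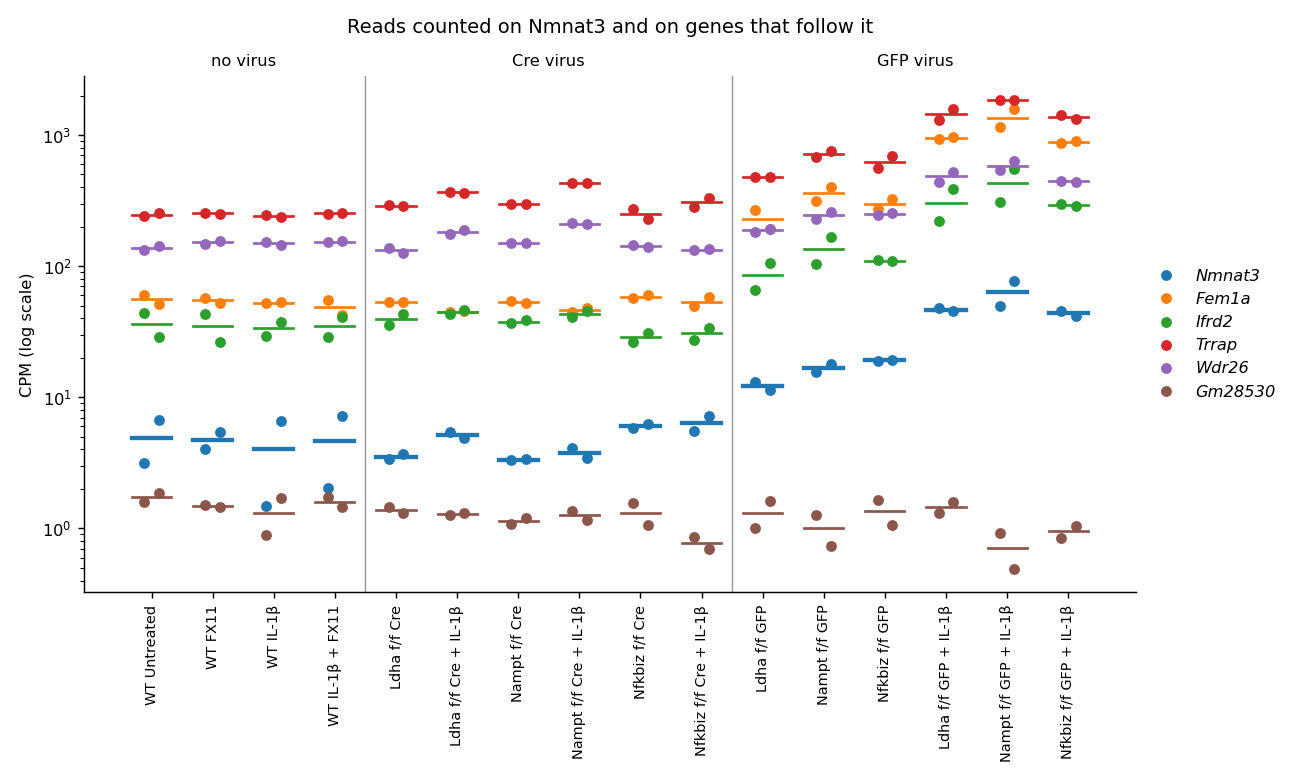
CPM on a log axis of Nmnat3, of 4 of the 5 genes that follow it most closely over the 32 libraries and of Gm28530, a pseudogene in its introns. Points are libraries and short lines are means of 2. Nmnat3, Fem1a, Ifrd2 and Trrap are higher in each of the 12 GFP virus libraries than in any other, Wdr26 overlaps, and Gm28530 stays between 0.494 and 1.87 CPM.

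Several genes outside NAD metabolism had a like profile, and they were chosen after their values were seen. Over 32 libraries and 14254 genes the highest Pearson correlations with its log2 CPM were those of Fem1a (0.954), Ifrd2 (0.935), Trrap (0.932), Rpl15-ps3 (0.924) and Wdr26 (0.912). Fem1a, a substrate receptor of a ubiquitin ligase, lay between 192 and 1573 CPM with GFP virus, between 44.5 and 59.8 CPM with Cre virus and between 42.5 and 60.4 CPM without virus. These points share the virus and the libraries. The part of the virus in the Nmnat3 reads was not tested. Counts of members are for this reason also given without Nmnat3.

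Of the kinases that form NADP, Nadk was not called after Nampt deletion and Nadk2 was called lower with IL-1β. Nadk (ENSMUSG00000029063, chr4:155562378-155591001, plus strand) had 109 and 105 CPM with GFP virus against 110 and 110 CPM with Cre virus in Nampt f/f cells, and 156 and 159 CPM against 167 and 157 CPM with IL-1β. Its log2 fold changes after Nampt deletion were 0.03 ± 0.06 and 0.06 ± 0.06. Nadk2 (ENSMUSG00000022253, chr15:9071260-9110487, plus strand), the mitochondrial kinase, had 18.0 and 15.7 CPM against 16.6 and 13.6 CPM without IL-1β, which was not called. With IL-1β it had 29.5 and 26.9 CPM with GFP virus and 19.1 and 15.8 CPM with Cre virus, a log2 fold change of -0.67 ± 0.13 (adjusted p = 0.00186). The same comparison gave -0.62 ± 0.10 (adjusted p = 0.0014) in Ldha f/f cells, where 5 of 9 members and 34.0% of genes were called, and -0.76 ± 0.13 (adjusted p = 0.00163) in Nfkbiz f/f cells, where 4 of 9 members and 17.4% of genes were called. With IL-1β, the Cre virus libraries thus had lower Nadk2 than the GFP virus libraries in each of the 3 lines, without overlap.

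The second question was how IL-1β itself altered these genes while the floxed genes were intact. Over the 6 against 6 GFP virus libraries of the floxed lines, Nadk, Nadk2, Nampt and Nmnat3 rose and Nmrk1 fell. These were 5 of 9 tested members, near the background of 56.2% of 14283 genes called, so the count itself says nothing particular about the members. Without Nmnat3 it was 4 of 8. The rise of Nmnat3 was seen with GFP virus only. With Cre virus it lay between 3.31 and 6.21 CPM without and between 3.42 and 7.26 CPM with IL-1β. In virus-free WT cells it went from 3.13 to 1.49 CPM in set 1. In set 2, where the IL-1β label is in doubt, it had 6.65 and 6.57 CPM. The median log2 fold change was 0.43 over the members and -0.01 over all genes.

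Nadk showed the most even response. Its lowest, median and highest values were 105, 109 and 115 CPM without and 154, 157 and 170 CPM with IL-1β, so the groups did not overlap. The rise was 1.46-fold (log2 0.55 ± 0.04, adjusted p = 1.75e-09). Nadk2 went from 13.4, 15.8 and 18.0 CPM to 23.7, 25.7 and 29.5 CPM, again without overlap, a rise of 1.68-fold (0.75 ± 0.06, adjusted p = 1.18e-08). Both genes were called in each line taken alone, with Nadk at 0.58, 0.51 and 0.55 and Nadk2 at 0.76, 0.65 and 0.84 on the log2 scale in Nampt f/f, Ldha f/f and then Nfkbiz f/f cells.

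Nampt rose less, by 1.35-fold over the 3 lines (0.43 ± 0.06, adjusted p = 4.14e-06), from 54.6, 59.8 and 78.7 CPM to 67.4, 80.3 and 114 CPM, with overlap between the groups. Within lines it went from 59.5 and 54.6 to 67.4 and 68.4 CPM in Nampt f/f cells, from 59.7 and 59.9 to 85.2 and 75.5 CPM in Ldha f/f cells and from 78.7 and 69.9 to 108 and 114 CPM in Nfkbiz f/f cells, without overlap in any of the 3. The log2 fold changes were 0.27 ± 0.09 (adjusted p = 0.0368), 0.42 ± 0.08 (adjusted p = 0.00371) and 0.60 ± 0.14 (adjusted p = 0.00801), in comparisons that called 5, 4 and 4 of 9 members, where 35.0%, 27.9% and 26.8% of genes were called. The first of these calls was lost when any 1 of its 4 libraries was left out (adjusted p from 0.0526 to 0.15). It was also lost with DESeq2 (adjusted p = 0.0585), with filterByExpr (adjusted p = 0.053) and with no filter (adjusted p = 0.104). The last was lost without replicate 2 of GFP or of GFP + IL-1β (adjusted p of 0.0756 and 0.0648).

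Nmrk1 fell by 0.38 ± 0.13 on the log2 scale over the 3 lines (adjusted p = 0.0227), from 2.83, 3.91 and 5.30 CPM to 2.30, 2.75 and 3.83 CPM, with overlap. The call was lost without Nampt f/f GFP + IL-1β replicate 1, Nfkbiz f/f GFP replicate 1, Ldha f/f GFP + IL-1β replicate 2 or Nampt f/f GFP replicate 2 (adjusted p from 0.0507 to 0.071), and with the WT libraries added (adjusted p = 0.185). Nmnat2 did not pass over the lines (0.78 ± 0.34, adjusted p = 0.0587), though it did without Nfkbiz f/f GFP + IL-1β replicate 1 (adjusted p = 0.0481), GFP replicate 2 (adjusted p = 0.0106) or GFP + IL-1β replicate 2 (adjusted p = 0.0132), and its values in the single lines were 1.80 ± 0.35 in Nampt f/f (adjusted p = 0.00235), 0.77 ± 0.28 in the Ldha f/f line (adjusted p = 0.0708) and -0.64 ± 0.52 in Nfkbiz f/f cells (adjusted p = 0.408). Nmnat1, Naprt and Nnmt were not called, with log2 fold changes of -0.02, 0.22 and 0.22.

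**Figure D5:**
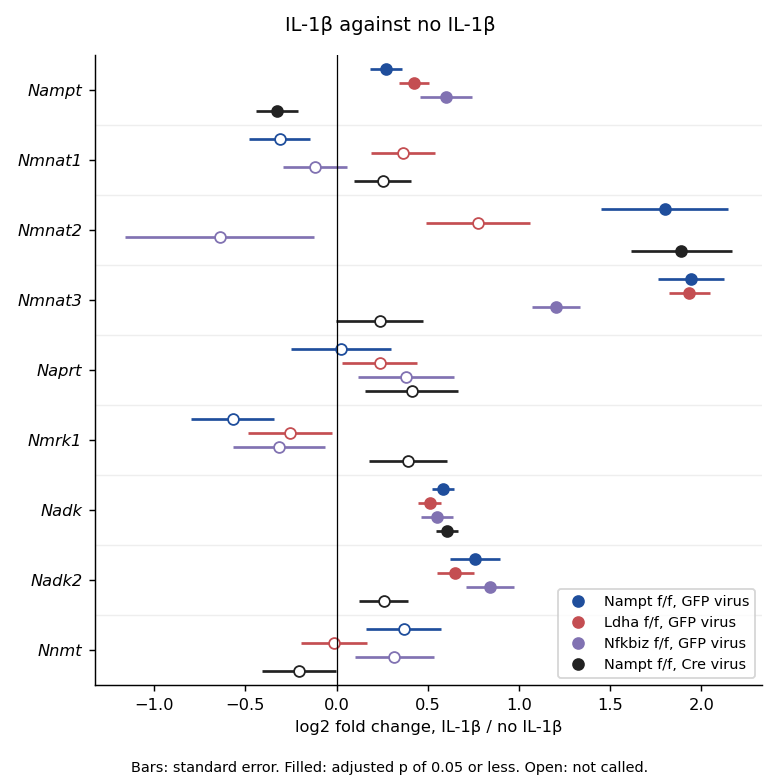
Log2 fold change of 9 members with IL-1β against no IL-1β in GFP virus cells of the 3 floxed lines and in Nampt f/f cells after Cre virus. Points are estimates, bars standard errors, and filled points have an adjusted p of 0.05 or less. Nadk rises by 0.51 to 0.61 in all 4 comparisons, while Nadk2 is called in the 3 GFP virus comparisons and not after Nampt deletion. With the library set as a block, not drawn here, Nadk2 is called there too.

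The third question was whether the IL-1β response of these genes differed between Cre and GFP virus cells of a line. After Nampt deletion IL-1β still raised Nadk (0.61 ± 0.06, adjusted p = 1.37e-05) and Nmnat2 (1.89 ± 0.28, adjusted p = 0.000256), and 3 of 9 members were called beside 43.9% of genes. The third was Nampt, whose remaining reads were lower by -0.33 ± 0.12 (adjusted p = 0.0412), a call lost without either Cre library or Cre + IL-1β replicate 2 (adjusted p from 0.104 to 0.25), with DESeq2 (adjusted p = 0.0641) and with limma (adjusted p = 0.142). Nadk2 had 16.6 and 13.6 CPM without and 19.1 and 15.8 CPM with IL-1β after Nampt deletion, which was not called (0.26 ± 0.14, adjusted p = 0.151). With the library set as a block this rise of Nadk2 was called (adjusted p = 0.0286). The interaction of Nampt deletion with IL-1β called 3 of 9 members, where 22.0% of genes were called. It was -0.60 ± 0.15 for Nampt (adjusted p = 0.0145), and 0.0554 without Cre + IL-1β replicate 2. It was -1.71 ± 0.30 for Nmnat3 (adjusted p = 0.00232). For Nmrk1 it was 0.96 ± 0.31 (adjusted p = 0.0498), a value at the threshold that was lost when any 1 of the 8 libraries was left out (adjusted p from 0.0615 to 0.173) and under 5 of 7 other settings (adjusted p from 0.0506 to 0.22). For Nadk2 it was -0.50 ± 0.19 (adjusted p = 0.0884, and 0.0424 without Cre + IL-1β replicate 1) and for Nadk 0.03 ± 0.09. The Nadk2 interaction was called with the library set as a block (adjusted p = 0.00462).

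The IL-1β response of Nampt, Nadk and Nadk2 was lower after Nfkbiz deletion than with GFP virus. With Cre virus in Nfkbiz f/f cells, Nampt had 80.7 and 88.1 CPM without and 67.2 and 46.4 CPM with IL-1β, so the libraries with IL-1β were the lower ones, opposite to the GFP virus libraries. Nadk had 119 and 124 CPM without and 125 and 126 CPM with IL-1β, and Nadk2 had 15.8 and 13.7 CPM against 13.6 and 15.7 CPM. Under IL-1β, the log2 fold change with Cre virus was -0.99 ± 0.15 for Nampt (adjusted p = 0.000473), leaving 50.4%, and -0.42 ± 0.09 for Nadk (adjusted p = 0.00511), leaving 74.7%. The call of Nadk was lost without GFP + IL-1β replicate 1 (adjusted p = 0.0762). The interaction, added after seeing the data, called 4 of 9 members, where 5.19% of genes were called, or 3 of 8 without Nmnat3. It was -1.16 ± 0.21 for Nampt (adjusted p = 0.0052), and this call was kept whichever library was left out. It was -0.84 ± 0.19 for Nadk2 (adjusted p = 0.0222) and -0.50 ± 0.12 for Nadk (adjusted p = 0.0365). The call of Nadk2 was lost without either GFP library, either GFP + IL-1β library or Cre replicate 1 (adjusted p from 0.0767 to 0.117), and that of Nadk without any 1 of the GFP, GFP + IL-1β or Cre libraries (adjusted p from 0.0646 to 0.192).

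In Ldha f/f cells IL-1β changed Nampt from 58.5 and 55.9 CPM to 57.6 and 52.4 CPM after Cre virus, against the rise from 59.7 and 59.9 to 85.2 and 75.5 CPM with GFP virus. The interaction was -0.44 ± 0.12 (adjusted p = 0.0375) for Nampt, one of 2 called members beside Nmnat3, where 11.5% of genes were called. It was lost without either GFP library, either Cre library, GFP + IL-1β replicate 1 or Cre + IL-1β replicate 2 (adjusted p from 0.0713 to 0.129). Under IL-1β, Nampt was lower with Cre than with GFP virus (log2 fold change -0.53 ± 0.08, adjusted p = 0.000898), leaving 69.5%. Nadk had 110 and 115 CPM without and 158 and 159 CPM with IL-1β after Cre virus in these cells, with an interaction of 0.02 ± 0.09. For Nadk2 the interaction in Ldha f/f cells was -0.48 ± 0.15 (adjusted p = 0.066, and 0.0219 with the library set as a block). Whether the interactions for Nampt, Nadk and Nadk2 differed between the floxed lines was not tested.

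In virus-free WT cells, no member was called with FX11. By edgeR 0 of 15461 genes were called without IL-1β and 0 with IL-1β (0.0% and 0.0%), with 68 and 102 genes at an unadjusted p of 0.05 or less, and DESeq2 and limma likewise called 0 of the 9 members. These fits kept the 2 doubted libraries, so the IL-1β and FX11 conditions each mixed high and low Mmp3. Standard errors of the members lay between 0.21 and 1.34. The 0 calls therefore cannot show that FX11 had no effect. Nampt had 57.2 CPM untreated, 51.6 with FX11, 89.0 with IL-1β and 72.9 with both in set 1, and 74.6, 94.4, 73.9 and 92.8 CPM in the libraries of those labels in set 2. Nadk had 108, 115, 243 and 251 CPM in set 1 and 102, 164, 104 and 157 CPM in set 2. The orders of the conditions thus differed between the sets in the libraries whose labels are in doubt. With those left out, 1 library remained in each of the IL-1β and FX11 conditions, and the estimates for Nampt became -0.36 without and -0.09 with IL-1β. Nnmt was at 0.797 to 1.96 CPM in the 4 WT libraries of set 1 and at 5.67 to 10.4 CPM in the 4 of set 2, without overlap.

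Among 24 further genes of NAD synthesis, transport and breakdown, 23 matched a gene in the counts and 13 were high enough to test in Nampt f/f cells. The kynurenine route genes Tdo2, Ido1, Ido2, Kmo, Kynu and Acmsd stayed below 1 CPM in each of the 32 libraries. After Nampt deletion 4 of the 13 were called without IL-1β, 2 higher and 2 lower, where 14.4% of all genes were called. With IL-1β 7 were called, 3 higher and 4 lower, where 48.4% of all genes were, so the latter count is near the background. Nt5e, which encodes the ectoenzyme CD73, had 119 and 119 CPM with GFP virus and 82.0 and 81.9 CPM with Cre virus, and with IL-1β 164 and 158 CPM against 28.9 and 25.9 CPM. Its log2 fold changes were -0.55 ± 0.07 (adjusted p = 0.000349) and -2.53 ± 0.07 (adjusted p = 2.08e-09). Bst1, which encodes an ADP-ribosyl cyclase related to CD38, had 0.279 and 0 CPM against 3.31 and 3.63 CPM, and 0.801 and 0.988 CPM against 11.1 and 11.6 CPM with IL-1β. Cd38, the main NAD glycohydrolase of many tissues, had 0.380 and 0.105 CPM against 1.73 and 0.936 CPM, and 0.561 and 0.123 CPM against 8.91 and 6.55 CPM with IL-1β. Both were called in both states, with adjusted p from 1.23e-05 to 0.0233.

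Nt5e and Bst1 were also called in Ldha f/f cells, and Cd38 was higher with Cre virus there too. There Nt5e had 110 and 116 CPM against 86.4 and 85.7 CPM without IL-1β and 130 and 124 CPM against 30.6 and 28.0 CPM with it, and Bst1 had 1.39 and 1.27 CPM against 12.0 and 11.2 CPM with IL-1β. Cd38 had 0 and 0.0807 CPM against 1.01 and 0.543 CPM without IL-1β. With IL-1β it had 0.107 and 0 CPM against 4.66 and 3.82 CPM. Nt5e was lower with Cre virus in Nfkbiz f/f cells too under IL-1β, at 132 and 127 CPM against 72.5 and 60.9 CPM (-0.97 ± 0.11, adjusted p = 5.32e-05), and so in each of the 3 lines. Of 14 list genes tested over the 3 lines, 4 (beside 31.3% of all genes) differed in Cre effect between the Nfkbiz f/f line and the Nampt f/f line, with Bst1 and Cd38 higher and Nt5e and Nudt13 lower in Nampt f/f. Between the Ldha f/f line and the Nampt f/f line 0 of the 14 differed, where 0.705% of all genes did. Under IL-1β, Nampt deletion also went with lower Nudt13 (-1.82 ± 0.21), Nudt12 (-1.09 ± 0.34) and Aox1 (-0.79 ± 0.21) and with higher Slc12a8 (1.65 ± 0.33), and without IL-1β with lower Slc25a51 (-0.29 ± 0.07). Ldha deletion under IL-1β likewise called 7 of 13 list genes, 3 higher and 4 lower, where 34.0% of all genes were called. NUDT12 and NUDT13 hydrolyse NAD or NADH, aldehyde oxidase oxidises methylated nicotinamide, and SLC25A51 carries NAD into mitochondria. Over the 3 GFP virus lines IL-1β raised Aox1 (1.11 ± 0.14) and Nt5e (0.22 ± 0.06) and lowered Kyat1 (-0.45 ± 0.15), which were 3 of 10 list genes tested there, where 56.2% of all genes were called. Nnt, the mitochondrial transhydrogenase that passes electrons from NADH to NADP, was at 40.6 to 50.4 CPM in WT and at 10.2 to 16.1 CPM in the floxed lines, without overlap. It was called in none of the comparisons, but none of them set WT against the floxed lines, so this gap was not tested.

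The genes most like Nampt were sought over the 24 libraries that were not Nampt f/f, among 14210 genes, by the Pearson correlation of log2 CPM. Pdk3 (0.893), Tmem45a (0.880), Cnot7 (0.872), P4ha2 (0.863) and Bnip3 (0.852) were highest, and Fhl2 (-0.819), Pcbp4 (-0.816), Smtn (-0.804), Tsen54 (-0.801) and Eif4h (-0.799) were lowest. PDK3 inhibits pyruvate dehydrogenase, P4HA2 hydroxylates collagen and BNIP3 acts in mitophagy. The libraries share lines, sets and treatments, so these values describe a shared profile over the series and carry no test.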

How the data were processed

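RNA from 32 chondrocyte libraries was depleted of ribosomal RNA and sequenced. The authors aligned reads with STAR to the Ensembl release 76 assembly (GRCm38) and counted uniquely aligned, unambiguous reads per gene with featureCounts, and the deposited counts were used as they stand. The submitters' processing notes name STAR 2.0.4b and featureCounts 1.45, while the published methods name other versions of both. The strand setting of the counting is not given in the sources used here, so antisense reads could not be separated. The authors also deposited CPM (counts scaled to the library total), RPKM (CPM per kilobase) and the exon length in bases; the deposited CPM and RPKM entered no test.

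Groups were taken from the sample labels. Replicates of a condition are separate samples, but the labels do not say whether they came from separate cultures or animals, so p-values may measure technical spread. The 10 members, the lists and the comparisons were chosen with earlier results of these data known, and the text names all members, the called genes of the 24-gene list and the 5 genes at each end of the correlation with Nampt. Names came from GENCODE M21, which matched 40254 of 41388 identifiers, and member coordinates (GRCm38) from the files. CPM printed here were recomputed from the counts with TMM factors over the 32 libraries, and levels between genes are per kilobase of the deposited length.

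Testing used edgeR 4.0.16's quasi-likelihood test (R 4.3.3, TMM, two-sided) on genes above 1 CPM in 1 library or more (in 5 or more for 6 against 6), and 355 ribosomal RNA genes were removed. The threshold for a call was an adjusted p (Benjamini-Hochberg, over all genes tested) of 0.05 or less, and standard errors were derived from the F statistic. Comparisons within a line used its 8 libraries. Those across lines had the library set as covariate, and the 6 against 6 comparison also the line. Comparisons of a line share libraries, for example the GFP virus libraries of the deletion and IL-1β comparisons. A second test of each kind was made with DESeq2 1.42.0 and limma 3.58.1 (voomWithQualityWeights). Other alternatives were RLE, filterByExpr, no filter, the library set as a block, all 32 libraries in one model, WT libraries added and each library left out (68 refits). Added after seeing the data were the interactions in Ldha f/f and Nfkbiz f/f cells, IL-1β in those lines alone, Nampt f/f against each line alone and FX11 without the 2 doubted libraries.

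The test was checked on simulated counts in which 200 genes were changed 2-fold. It recovered 194 to 200 of them, with 8 or 9 false calls. The simulation gave all genes the same spread, had no library set effect and changed only genes with many counts. It therefore does not cover genes with few counts or differences between the sets. Library totals of 15830658 to 39959888 put 3 counts, the floor used here, under the 1 CPM filter in each library. With 2 libraries per condition, the spread between libraries sets the precision of all but the lowest genes.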

Additional observations from a re-analysis of the deposited data

Results flagged for a closer look

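Member results for which 2 groups' effects differed in a direct test are given here with their log2 differences, each by edgeR with a Benjamini-Hochberg adjusted p of 0.05 or less. For the Cre effect of Nampt f/f against the mean of the other lines, these were Nampt (-3.04), Nmnat2 (1.19) and Nmnat3 (-0.83). Against Ldha f/f alone it was Nampt (-3.09). Against Nfkbiz f/f alone these were Nampt (-3.00), Nmnat1 (0.54), Nmnat2 (2.05), Nmnat3 (-0.96) and Nadk (0.19), the last of which was not called without Nampt f/f GFP replicate 2 (adjusted p = 0.0513).

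For the dependence of a deletion's effect on IL-1β, these were Nampt (-0.60), Nmnat3 (-1.71) and Nmrk1 (0.96) in Nampt f/f cells, Nampt (-0.44) and Nmnat3 (-1.34) in Ldha f/f cells, and Nampt (-1.16), Nmnat3 (-1.10), Nadk (-0.50) and Nadk2 (-0.84) in Nfkbiz f/f cells. The Nmnat3 value of Nfkbiz f/f cells was not called without GFP + IL-1β replicate 1 (adjusted p = 0.0566). Nmnat3 appears in each line, beside its reads being high in GFP virus libraries alone, and the cause was not tested.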

How the results depend on the processing

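Of 60 called member results, 28 kept their call under every alternative run and 0 changed direction. Of 865 alternatives run on them, 770 kept the call and 95 lost it. The 28 called results that could be computed in both library sets had the same sign in both. Those are the libraries that gave the calls, so this is not a separate check. The cause was not tested for any change below. With all 32 libraries in one model, which holds the WT libraries whose values go against their labels, the number of called members fell in most comparisons. It was 1 for the Cre effect of Nampt f/f against the other lines (3 in the report) and 2 against Nfkbiz f/f (5). It was 0 for Ldha deletion without IL-1β (2), 3 with IL-1β (5) and 0 for its interaction (2). It was 4 for Nampt deletion with IL-1β (6), where Nmnat1 (adjusted p = 0.105) and Nmrk1 (0.0616) lost their calls, and 0 for the Nampt interaction (3). It was 0 for Nfkbiz deletion without IL-1β (1) and 0 for the Nfkbiz interaction (4). For IL-1β it was 1 in Nfkbiz f/f (4), 2 in Ldha f/f (4) and 3 in Nampt f/f (5) with GFP virus, and 1 after Nampt deletion (3). Against Ldha f/f, DESeq2 and no filter each called 2 members (1), and limma called 1 for Ldha deletion without IL-1β (2).

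Members that were not called changed sign as follows. Nadk against Ldha f/f was 0.0053 with filterByExpr and 0.025 with no filter. Nmnat1 under IL-1β over the lines was 0.029 with limma and 0.033 with WT added. The Ldha interaction of Nadk was -0.033 with filterByExpr and -0.022 in the 32-library model, and its Nampt interaction was -0.00074 there. Naprt under IL-1β in Nampt f/f was -0.047 with limma and -0.013 with no filter. Nnmt after Nfkbiz deletion without IL-1β was 0.0018 with limma and 0.00040 in the 32-library model. For FX11 without IL-1β, leaving out both doubted libraries gave -0.36 for Nampt, 0.15 for Nmnat2, -0.29 for Naprt and -1.75 for Nnmt, and Nmnat3 was 0.057 with limma. For FX11 with IL-1β, leaving out the doubted IL-1β library, or both, gave -0.092 and -0.092 for Nampt, -0.14 and -0.14 for Nmnat1, 0.15 and 0.15 for Nmrk1, and -0.25 and -0.25 for Nadk.

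Replicate numbers were shared by conditions of WT, Ldha f/f and Nampt f/f, with 2 numbers each. Deviations of same-numbered libraries correlated over 10874 genes at 0.45 to 0.61 in Nampt f/f, 0.42 to 0.67 in Ldha f/f and -0.25 to 0.73 in WT, and the labels do not say what a number marks. The replicate block added calls for Naprt (adjusted p = 0.0351) and Nmrk1 (0.0326) after Ldha deletion with IL-1β, Nadk2 in the Ldha interaction (0.0219), Nmnat2 under IL-1β in Ldha f/f (0.0498), Naprt (0.0312) and Nnmt (0.0268) after Nampt deletion with IL-1β, and Nadk2 under IL-1β after Nampt deletion (0.0286) and in the Nampt interaction (0.00462). With the block FX11 gave 0.10 for Nmnat3 without and -0.0075 for Nampt with IL-1β.

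Leaving out 1 library gave counts of 1 to 2 called members against Ldha f/f, 1 for Ldha deletion without IL-1β, 1 to 2 for the Ldha, 1 to 3 for the Nampt and 1 to 4 for the Nfkbiz interaction. It also gave ranges that spanned 0 for members that were not called. These were -0.025 to 0.18 for Nmrk1 against the other lines, and -0.026 to 0.24 for Naprt and -0.030 to 0.016 for Nadk against Ldha f/f. For Nmnat1 under IL-1β over the lines it was -0.095 to 0.056. For Ldha deletion without IL-1β they were -0.071 to 0.14 for Naprt and -0.062 to 0.24 for Nnmt, and for its interaction -0.046 to 0.24 for Nmnat1, -0.030 to 0.053 for Nadk and -0.095 to 0.23 for Nnmt. Under IL-1β they were -0.091 to 0.061 for Nnmt in Ldha f/f, -0.23 to 0.28 for Naprt in Nampt f/f and -0.43 to 0.074 for Nnmt after Nampt deletion. For Nampt deletion they were -0.21 to 0.29 for Nnmt without IL-1β, -0.018 to 0.11 for Nadk with it, and -0.82 to 0.40 for Nmnat2 and -0.064 to 0.073 for Nadk in the interaction. For Nfkbiz deletion they were -0.027 to 0.17 for Nadk2 and -0.22 to 0.23 for Nnmt without IL-1β, -0.14 to 0.45 for Naprt and -0.052 to 0.39 for Nmrk1 with it, and -0.028 to 0.56 for Naprt and -0.27 to 0.17 for Nnmt in the interaction. For FX11 without IL-1β they were -0.35 to 0.55 for Nampt, -0.65 to 0.65 for Nmnat1, -0.80 to 0.15 for Nmnat2, -0.48 to 0.59 for Nmnat3, -0.29 to 0.85 for Naprt and -1.74 to 2.88 for Nnmt. With IL-1β they were -0.16 to 0.22 for Nampt, -0.18 to 0.38 for Nmnat1, -0.98 to 1.65 for Nmnat3, -0.56 to 0.15 for Nmrk1, -0.25 to 0.98 for Nadk and -0.91 to 1.20 for Nnmt. Where a library was left out, the one remaining of its condition was assumed to vary like the others in the fit.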
